A study of Drosophila melanogaster with 12 samples.

Results

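The 7 named genes of cuticular hydrocarbon synthesis in oenocytes were followed through the gut and fat body count tables: the fatty acid synthases FASN2 and FASN3, the elongases eloF and bond, the fatty acyl-CoA reductase FarO, the cytochrome P450 Cyp4g1 and its electron donor Cpr. Of these 7 genes, 6 had a count in both tables, which share 10005 genes. FASN3, whose identifier in the gene table used here is FBgn0287184, matched neither table and was not analysed here.

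The libraries came from guts and fat bodies of mated adult females that carried UAS-PntRNAi, an RNA interference construct against the ETS transcription factor pnt, under the S106 GeneSwitch driver in the outbred, white-mutant Dahomey background. GeneSwitch is a Gal4 fusion that turns on its target when flies eat the steroid RU486, and S106 drives it in the gut and the abdominal fat body. There were 3 induced libraries (+RU486, 6 days of feeding, starting after 48 h of mating) and 3 control libraries (-RU486) for each tissue, 12 in all, each from pooled dissected tissue. The labels list 200 µM RU486 as the treatment of every sample, and groups were taken from the induction label. No library came from flies with the driver alone on RU486, so an effect of the drug and an effect of the RNAi cannot be told apart. The labels do not say that libraries of a group came from separate cultures, so p-values measure the spread between these libraries, part of which may be technical. Fat body here was the rest of the abdomen after gut and reproductive organs were taken out, thus with the body wall, and guts had their tubules removed.

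Oenocytes are secretory cells that lie under the abdominal cuticle of the adult fly. They build very long fatty acyl chains by rounds of elongation, reduce them to aldehydes and remove the terminal carbon as a hydrocarbon. The hydrocarbons coat the cuticle, limit water loss and serve as contact pheromones, and in Drosophila melanogaster females the long-chain dienes are the main sex-specific products.

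Libraries held 4932359 to 10254951 counts. Levels are given as CPM, read counts scaled to a common library total, after TMM scaling over all 12 libraries unless another scale is named, and levels of different genes are compared only per kilobase of exon. For pnt the log2 difference of induced and control libraries was -0.31 among guts (SE 0.21, edgeR quasi-likelihood test with Benjamini-Hochberg adjustment, adjusted p = 0.838) and -0.30 among fat bodies (SE 0.26, adjusted p = 0.986), so the targeted gene passed in neither. The 10 gut markers summed to 19100 to 39247 CPM per gut library and 264 to 335 CPM per fat body library, and the 10 fat body markers to 26710 to 106781 CPM per fat body library and 1805 to 3078 CPM per gut library. Markers of reproductive organs were also counted. The 4 spermatheca markers summed to 400 to 790 CPM per fat body library and 25.7 to 39.7 CPM per gut library. The 9 ovary markers summed to 61.4 to 187 CPM in control and 195 to 424 CPM in induced fat bodies. In guts the ovary sum ran from 19.0 to 998 CPM. In the gut, 5 of 10358 genes passed 10% FDR on induction and in the fat body 0 of 11056 did. In the fat body 302 genes had an unadjusted p below 0.05, and DESeq2 called 16.

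FASN2 (FBgn0042627) encodes the fatty acid synthase of oenocytes that makes the methyl-branched precursors. It lies on chromosome 2L at 3043947-3056143 on the plus strand of BDGP6.54, with 8161 bp of exon. Its gut read counts were 8, 11 and 4 in the control libraries and 3, 6 and 6 in the induced libraries. In the control fat bodies its levels were 57.6, 70.9 and 109 CPM, and in the induced fat bodies 47.7, 45.6 and 73.0 CPM. Every fat body library was far above every gut library, where the gene rested on a handful of reads. In tissue pieces like these, more cells of a type and more RNA per cell cannot be told apart. FASN2 was 6.33 higher in fat body than in gut on the log2 scale in controls (SE 0.37, edgeR adjusted p = 8.03e-08) and 6.13 higher in induced flies (SE 0.38, adjusted p = 1.35e-07).

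eloF (FBgn0037762), the female-biased elongase needed for long-chain dienes, is a compact gene on chromosome 3R at 9814161-9815158, plus strand, with 933 bp of exon. Its gut read counts were 23, 28 and 22 in controls and 41, 46 and 30 in induced libraries. Its fat body levels were 2333, 2031 and 1896 CPM in controls and 1436, 1473 and 2135 CPM in induced libraries. Of all 6 genes eloF was the steadiest among control fat bodies, with a coefficient of variation of 10.7%. The fat body level exceeded the gut level by 9.34 on the log2 scale in controls (SE 0.41, edgeR adjusted p = 2.74e-08) and by 8.07 in induced flies (SE 0.38, adjusted p = 3.41e-08). Per kilobase it ranked between places 56 and 71 of 9926 genes in the 6 fat body libraries.

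bond (FBgn0260942), a very-long-chain fatty acid elongase known for its part in male fertility and in a male pheromone, had the opposite tissue pattern. It lies on chromosome 3R at 22550680-22556494, plus strand, and overlaps asRNA:CR44062 on the other strand, which held 1 to 39 reads per library. In the gut its levels were 28.8, 47.9 and 51.7 CPM in controls and 57.4, 39.3 and 53.2 CPM in induced libraries. In the fat body they were 8.48, 21.5 and 9.81 CPM in controls and 14.2, 9.98 and 9.73 CPM in induced libraries. The highest fat body library was still below the lowest gut library. The log2 difference of fat body and gut was -1.69 in controls (SE 0.37, edgeR adjusted p = 0.00287) and -2.15 in induced flies (SE 0.37, adjusted p = 0.000553).

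FarO (FBgn0023550), an oenocyte fatty acyl-CoA reductase that also limits oenocyte growth, lies on chromosome X at 2201820-2203866 on the minus strand. The position overlaps Mct1, a monocarboxylate transporter gene on the other strand, and asRNA:CR43637 on the same strand. FarO gut read counts were 19, 34 and 3 in controls and 4, 12 and 7 in induced libraries. Its fat body levels were 15.2, 25.8 and 72.9 CPM in controls and 17.1, 17.3 and 37.0 CPM in induced libraries. All fat body libraries were above all gut libraries, and control fat body library 3 stood well above the rest. FarO was higher in fat body by 4.08 on the log2 scale in controls (SE 0.67, edgeR adjusted p = 0.000371) and by 4.33 in induced flies (SE 0.72, adjusted p = 0.000405).

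The few FarO reads of the gut moved with those of the overlapping gene Mct1. Mct1 held 644, 984 and 130 reads in the control guts and 168, 410 and 326 in the induced guts. The other overlapping gene, asRNA:CR43637 on the same strand as FarO, followed much the same order. It held 113, 156 and 10 reads in the control guts and 5, 49 and 32 in the induced guts. In the 6 gut libraries the FarO count was between 2.15% and 3.46% of the Mct1 count, over a range of Mct1 counts from 130 to 984. In the 6 fat body libraries it was between 76.8% and 158% of it. Control fat body library 3, with the most FarO, also had the most Mct1 (46.2 CPM) and asRNA:CR43637 (10.3 CPM) among the fat bodies. Whether counting used strand is not given in the sources used here. Whether reads listed under FarO in either tissue came from FarO transcripts was not tested.

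**Figure D1:**
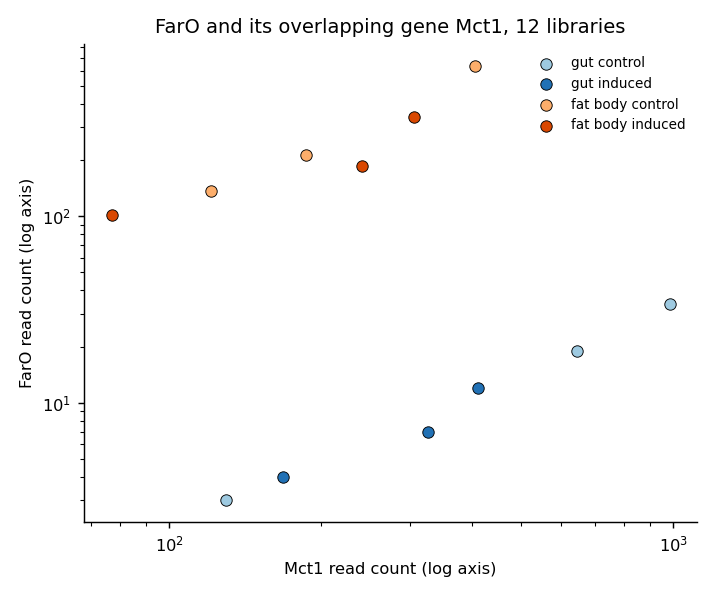
FarO read count (vertical, log axis) against the read count of Mct1, the gene that overlaps FarO on the other strand (horizontal, log axis), with 1 point for each of the 12 libraries, coloured by group. The gut points run along one line at 2.15% to 3.46% of the Mct1 count, and the fat body points lie far above it.

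Cyp4g1 (FBgn0010019) encodes the P450 that removes the terminal carbon of the aldehyde and so completes the hydrocarbon, and it is among the most abundant transcripts of the adult fly. It lies on chromosome X at 467057-469335 on the minus strand, with 2279 bp of exon in 1 transcript, within the bounds of CG32816 on the same strand, a gene with 1 to 203 reads per library. In control fat bodies its level was 17403, 32892 and 50933 CPM, and in induced fat bodies 20515, 22416 and 33716 CPM. In control guts it was 93.3, 50.8 and 43.3 CPM, and in induced guts 97.4, 104 and 94.0 CPM. In the fat body this 1 gene took 2.05% to 4.66% of all counts of a library and ranked between places 4 and 11 of 9926 genes per kilobase. Fat body exceeded gut by 9.08 on the log2 scale in controls (SE 0.64, edgeR adjusted p = 2.81e-07) and by 8.02 in induced flies (SE 0.61, adjusted p = 5.69e-07).

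Cpr (FBgn0015623), the NADPH-cytochrome P450 reductase that hands electrons to Cyp4g1 and to other microsomal P450 enzymes, was present in both tissues. It lies on chromosome 2L at 6338836-6346280, plus strand, with 3344 bp of exon over 4 transcripts. Gut levels were 396, 381 and 239 CPM in controls and 199, 220 and 253 CPM in induced libraries. Fat body levels were 628, 655 and 1909 CPM in controls and 504, 460 and 647 CPM in induced libraries. Each fat body library was above each gut library, by a far smaller margin than for Cyp4g1. Cpr was 1.65 higher in fat body on the log2 scale in controls (SE 0.41, edgeR adjusted p = 0.00729) and 1.26 higher in induced flies (SE 0.41, adjusted p = 0.0288). Without induced fat body library 3 the induced difference was 1.06 with an adjusted p of 0.102, above the 10% threshold.

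**Figure D2:**
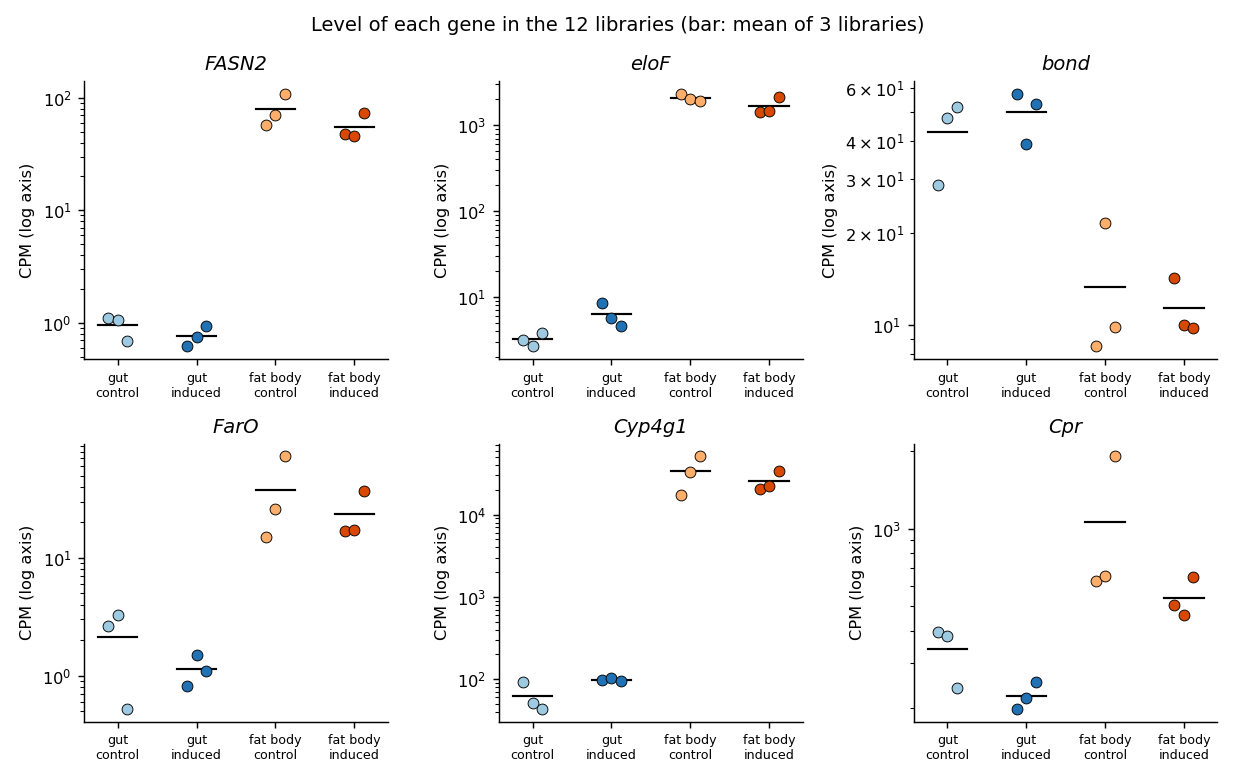
Level of each gene in CPM (vertical, log axis, its own range in each panel) in the 4 groups, with 1 point per library and a bar at the mean of 3 libraries. For 5 genes all fat body points lie above all gut points, and for bond they all lie below.

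Of the 6 genes, 5 were higher and 1 was lower in fat body than in gut at 10% FDR, in controls and again in induced flies. Over all 10005 genes 38.2% passed in controls (18.3% higher, 19.9% lower) and 43.8% in induced flies (22.7% higher, 21% lower). Libraries of the tissues did not overlap for any of the 6 genes; in controls this held for 18.1% of all genes in the higher direction and 19.5% in the lower, and in induced flies for 30% and 27.4%. The median log2 difference of the 6 genes was 5.21 in controls and 5.23 in induced flies, beside medians of 0.0020 and 0.047 over all genes.

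Per kilobase of exon the 6 genes spanned a wide range of levels in the control fat bodies. Cyp4g1 stood first with 14806 ± 7363 CPM per kilobase (SD, n = 3), ahead of eloF with 2236 ± 240 CPM per kilobase (SD, n = 3) and Cpr with 318 ± 219 CPM per kilobase (SD, n = 3). The ranges of these 3 genes did not overlap. FarO at 22.6 ± 18.3, FASN2 at 9.69 ± 3.26 and bond at 6.90 ± 3.74 CPM per kilobase (SD, n = 3) followed, and the libraries of each of these neighbours in the order overlapped. In the control guts the order was Cpr with 101 ± 25.9 CPM per kilobase, Cyp4g1 with 27.4 ± 11.8, bond with 22.3 ± 6.39, eloF with 3.45 ± 0.61, FarO with 1.27 ± 0.85 and FASN2 with 0.116 ± 0.028 (SD, n = 3 each). Of these gut neighbours, only Cyp4g1 and bond had overlapping libraries.

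The balance of Cyp4g1 to its electron donor was reversed between the tissues. Per kilobase, Cyp4g1 was between 0.196 and 0.719 times the level of Cpr in the 6 gut libraries and between 39.2 and 76.5 times its level in the 6 fat body libraries. The ratio of Cyp4g1 to eloF differed much less. Their per-kilobase ratio was 4.65 to 12 in control guts, 4.72 to 8.28 in induced guts, 3.05 to 11.0 in control fat bodies and 5.85 to 6.46 in induced fat bodies. The ranges of that ratio overlapped between the tissues. Gut eloF rested on 22 to 46 reads per library. The gut ratios need not be those of gut cells, since the origin of the gut reads of Cyp4g1 and eloF was not tested.

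The level of Cyp4g1 in control guts was 0.185% of that in control fat bodies, and that of eloF 0.154%. A group of other lipid genes had nearly the same share. Fad2, also known as DesatF, the desaturase that makes the female dienes, was at 0.150%. Among the 12 other elongases measured in both tissues, the gut level was between 0.141% and 0.25% of the fat body level for CG16904, CG9458, CG6660, CG30008, CG9459, CG18609 and CG33110. Among the 12 other fatty acyl-CoA reductases it was 0.124% for Sgp, 0.148% for CG17562 and 0.228% for CG17560. Several of these shares rest on very few gut reads. Mean control gut levels were 0.21 CPM for CG33110, 0.36 for CG6660, 0.38 for CG17562, 0.41 for CG9459 and 0.57 for Sgp. FASN2 at 1.2%, FarO at 5.62%, Cpr at 31.8% and bond at 323% lay outside this band. Apart from Fad2, CG16904 and Sgp, these genes were singled out with their values in view.

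Shares as low as these were rare among the genes of the fat body. Of 1149 genes with a mean of at least 100 CPM in the control fat bodies, 29 had a gut level under 0.3% of the fat body level and 6 had one under 0.1%. The median share of the 1149 genes was 73.5%. The 29 include Cyp4g1, eloF and the other genes of the band apart from CG33110, which was at 84.3 CPM. Among fat body markers the lipoprotein gene apolpp was at 0.945% and the yolk protein gene Yp1 at 2.41%, and among spermatheca markers Send1, a serine protease gene, was at 0.130%. Other fat body markers had far larger shares, with Lsp2 at 35.3%, Lsd-2 at 74.9% and bmm at 285%, and bmm passed as lower in fat body. In the other direction such shares were more common. Of 1371 genes with a mean of at least 100 CPM in control guts, 108 had a fat body share under 0.3% and 35 under 0.1%. The digestive enzyme genes alphaTry, betaTry, Jon99Ciii and Mal-A1 were listed in control fat bodies at 0.0658%, 0.0504%, 0.0477% and 0.104% of their gut level. Other gut markers had larger shares, such as Myo31DF at 8.14% and Pdp1 at 94.0%. These marker genes were picked with their values in view. Whether gut reads of Cyp4g1 and eloF were made in gut cells was not tested.

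In the induced libraries each of these low shares was larger than in controls, and they spread further apart. Cyp4g1 was at 0.385% and eloF at 0.374% of the fat body level. Among the other genes of the band the share ran from 0.255% for CG17562, 0.274% for Sgp and 0.314% for CG17560 to 0.545% for CG6660 and 0.726% for CG33110. Mean induced gut levels were 0.57 CPM for CG17562, 0.99 for Sgp, 0.84 for CG6660 and 0.54 for CG33110. The shares of these genes rest on few reads. Only 3 of 1073 genes at 100 CPM or more in induced fat bodies, CG17562 and Sgp among them, had a gut share under 0.3%. None was under 0.1%. These shares combine the difference between induced and control guts with that between induced and control fat bodies. Most genes of the band were picked for a low share in controls, which by itself favours a larger share in other libraries. The rise in this set can therefore not be read as an effect of induction.

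**Figure D3:**
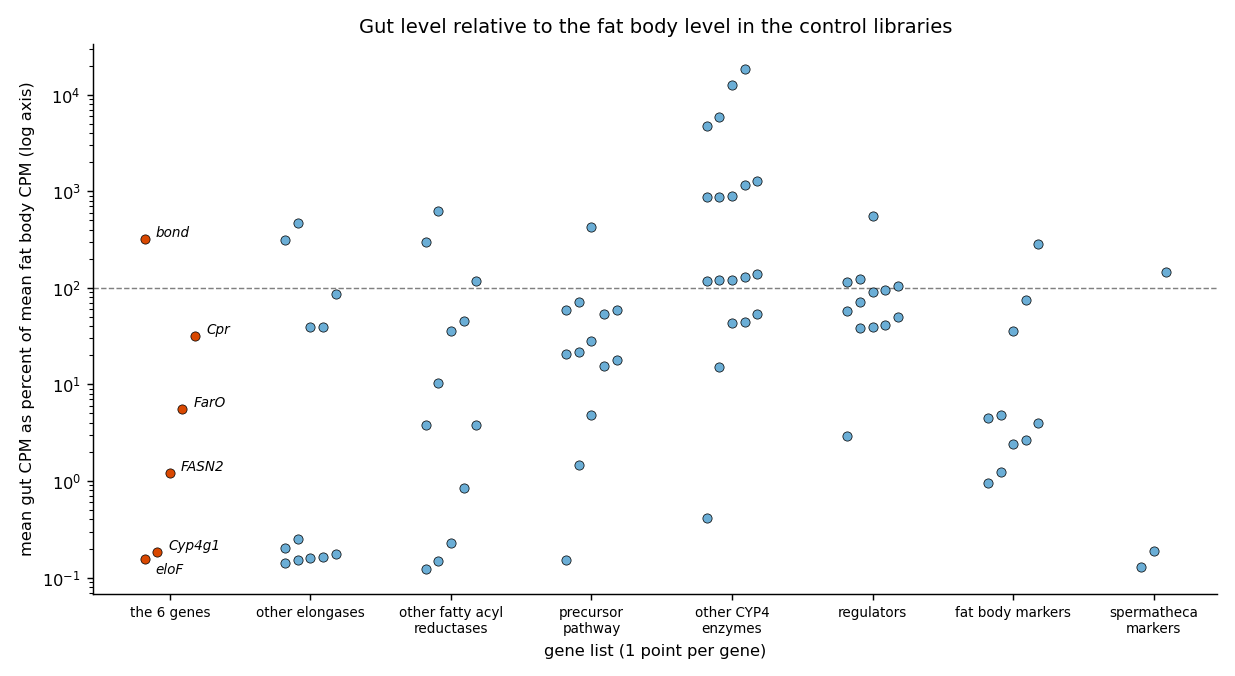
Mean gut CPM as a percentage of mean fat body CPM in the control libraries (vertical, log axis), with 1 point per gene, for the 6 genes and for 7 lists of pathway, regulator and marker genes. The dashed line marks equal levels. Cyp4g1 and eloF sit with 7 other elongases, 3 reductases and Fad2 between 0.124% and 0.25%, while bond lies above 100%.

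eloF is the second gene of a cluster of 5 elongase genes within a few kilobases of chromosome 3R. CG8534 ends 0.222 kb before it. The nearest ends of CG16904, CG9459 and CG9458, on the opposite strand, lie 0.77, 2.27 and 3.76 kb after it. CG16904 had 2532 ± 285 CPM in control fat bodies and 3.57 ± 1.88 CPM in control guts (SD, n = 3 each), and eloF had 2086 ± 224 and 3.22 ± 0.57 CPM. Per kilobase of exon the means were 2583 and 3.65 CPM for CG16904, close to 2236 and 3.45 CPM for eloF. CG9458 had 424 ± 7.19 CPM and CG9459 between 211 and 250 CPM in control fat bodies. CG8534 was in the fat body table alone, with 138 to 350 reads per library. bond lies far from this cluster on the same arm, near CG5326 and CG33110. CG33110 was 8.53 higher in fat body than in gut on the log2 scale in controls and passed the test, in the other direction from bond.

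The supply side of the pathway was also higher in fat body, by less. Of the 13 genes of the hydrocarbon precursor list, 11 were higher and 1 was lower in control fat bodies, with a median log2 difference of 2.19. Over all genes 18.3% were higher and 19.9% lower. The largest were Fad2 at 9.38, Cyt-b5-r at 6.08 and the general fatty acid synthase FASN1, also on the fat body marker list, at 4.38. The acetyl-CoA carboxylase gene ACC followed at 2.68, with the enzymes of the elongation cycle Sc2 at 2.48 and Hacd1 at 2.27, the desaturase gene Desat1 at 2.19 and the ketoacyl reductase gene spidey at 1.83. The smaller differences of Cyt-b5 at 0.91, bgm at 0.77 and Hacd2 at 0.76 also passed, and Acsl at 0.49 did not. The 1 gene lower in fat body was Desat2 at -2.06. In induced flies 9 were higher and 1 was lower, beside 22.7% and 21% of all genes.

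Of the other elongases 9 of 12 were higher and 2 lower in control fat bodies, with a median of 8.78, where 18.3% of all genes were higher and 19.9% lower. CG16904 was the highest at 9.46, and CG31522 the lowest at -2.24. Of the other fatty acyl-CoA reductases 7 of 12 were higher and 2 lower, from Sgp at 9.57 to wat at -2.62. CG10096 and CG10097 had identical counts in every library, so they were 1 measurement. Of the 19 CYP4 relatives of Cyp4g1, 3 were higher, near the share over all genes, 9 were lower and 7 passed in neither direction, from Cyp4d20 at 7.65 to Cyp4ad1 at -7.47. Of 13 regulators linked to oenocytes 5 were higher and 1 lower, beside 18.3% and 19.9% of all genes, or 38.2% in either direction. They ran from the nuclear receptor gene svp at 5.05 to the clock gene tim at -2.47. The oenocyte specification gene salm was in the fat body table alone, with 50 to 146 reads per library.

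Induction was compared within each tissue on counts scaled within that tissue. In the gut, 0 of the 6 genes passed 10% FDR by edgeR, where 0.0483% of all genes did, and DESeq2, which called 0.417% of genes, called none of them. Without adjustment eloF and Cpr had p below 0.05, where 5.43% of all genes did. eloF was at 2.82, 2.43 and 3.3 CPM in controls and 7.32, 5.10 and 4.02 CPM in induced guts on this scale. Every induced library was above every control library, as for 5.38% of all genes, and the log2 difference was 0.94 (SE 0.36, edgeR adjusted p = 0.836).

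Cpr was at 351, 346 and 207 CPM in control guts and 172, 195 and 219 CPM in induced guts on the scale within the tissue. Control library 3 lay among the induced libraries, and the other 2 controls lay above all of them. The log2 difference was -0.63 (SE 0.26, edgeR adjusted p = 0.836). Without control library 3, Cpr was lower in induced guts by -0.82 on the log2 scale (SE 0.17) and passed with an adjusted p of 0.0707. In that fit 8.49% of all genes passed, 879 of 10357.

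Cyp4g1 was 0.63 higher in induced guts on the log2 scale (SE 0.30, edgeR adjusted p = 0.836). Its control levels of 82.6, 46.2 and 37.5 CPM on the scale within the tissue reached into the induced range of 84.5, 91.5 and 81.3 CPM, through control library 1. bond was at 0.20 (SE 0.28), FASN2 at -0.34 (SE 0.49) and FarO at -0.94 (SE 0.65), none past the test. Mct1 was lowest in control library 3 too, the library with 3 FarO reads. The median of the 6 genes was -0.071, beside -0.058 over all genes. For the genes that shared the low gut share of eloF, the gut log2 differences ran from 0.18 for CG17560 and 0.59 for CG17562 to 1.19 for CG6660 and 1.22 for CG33110, with Fad2 at 0.86 and CG16904 at 0.95, and none passed 10% FDR. CG17562, CG6660 and CG33110 rest on few gut reads. Most genes of this band were picked for low gut shares in controls, which by itself favours values above 0 here.

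In the fat body, 0 of the 6 genes passed 10% FDR, where 0% of all genes did, and 0 had an unadjusted p below 0.05, where 2.73% of all genes did. DESeq2, which called 0.145% of genes, called none of them either. All 6 log2 differences were below 0, with a median of -0.47 beside -0.048 over all genes. Cpr had the largest. Its levels on the scale within the tissue were 726, 721 and 2172 CPM in controls and 572, 524 and 716 CPM in induced fat bodies. Every induced library was below every control library, as for 4.29% of all genes, but induced library 3 and control library 2 were nearly level, and on the scale over 12 libraries the groups overlapped. The log2 difference was -1.0 (SE 0.46, edgeR adjusted p = 0.986), and without control library 3 it was -0.25.

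The other 5 genes overlapped between the groups. Cyp4g1 was at 20123, 36187 and 57952 CPM in control and 23265, 25504 and 37325 CPM in induced fat bodies on the scale within the tissue, with a log2 difference of -0.41 (SE 0.41). FarO was at -0.69 (SE 0.59), FASN2 at -0.52 (SE 0.30), eloF at -0.32 (SE 0.24) and bond at -0.23 (SE 0.40), each with an edgeR adjusted p of 0.986. The 95% interval of Cyp4g1 ran from -1.37 to 0.55. Without control library 3 Cyp4g1 was at 0.040, FarO at 0.23, FASN2 at -0.20, eloF at -0.37 and bond at -0.39.

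**Figure D4:**
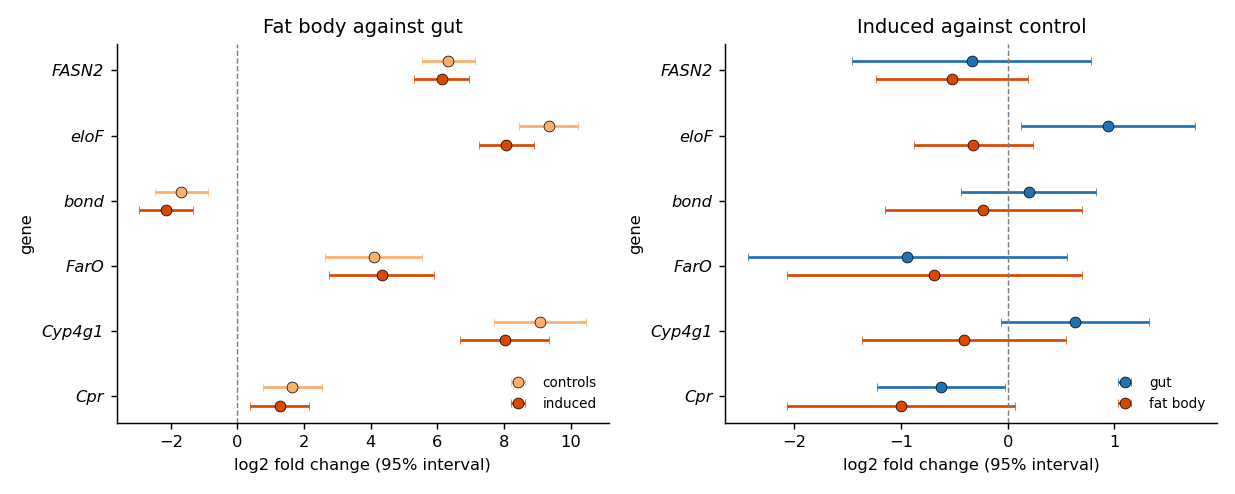
Log2 fold change of each gene with its 95% interval from the edgeR fits (horizontal) for fat body against gut in controls and in induced flies (left) and for induced against control in gut and in fat body (right). The tissue intervals all exclude 0, and on the right only those of eloF and Cpr in the gut do, before adjustment over all genes.

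The fat body values of 4 of the 6 genes moved with control library 3. Relative to the mean of the other 2 control fat bodies, FarO stood at 3.56 times, Cpr at 2.98 times, Cyp4g1 at 2.03 times and FASN2 at 1.69 times in this library, while eloF stood at 0.869 times and bond at 0.654 times. The summed level of 10 fat body markers was 106781 CPM in it, against 26710 to 51388 CPM in the other 5 fat body libraries. Most of that sum came from the 3 yolk protein genes, with 88771 CPM in this library against 12901 to 32071 CPM in the others. The other 7 markers summed to 18010 CPM in it, above the 13271 and 13860 CPM of the other control fat bodies. Among the induced fat bodies they ran from 11535 CPM to 19317 CPM, the latter in induced library 3. The TMM factor of control library 3 was 0.918, below the 1.11 to 1.30 of the other 5 fat body libraries. The second highest sum of all 10 markers, 51388 CPM, was in induced library 3. There FarO, Cyp4g1, FASN2, Cpr and eloF were highest among the induced libraries and bond was not. The 7 cuticle and epidermis markers did not share this order: their sum was 95.1 CPM in control library 3 and 333 CPM in control library 2, the library with the most bond. The part of such differences between libraries in the induction values was not tested.

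Over the 6 fat body libraries, which share their tissue and their 2 treatments, the correlation of log2 CPM with the mean of the standardised members was 0.98 for FASN2, 0.92 for Cyp4g1, 0.91 for FarO and 0.88 for Cpr. It was 0.46 for eloF and 0.09 for bond. Each of the 6 genes was itself part of that mean, which raises its own correlation. Other genes were compared if their mean over the fat body libraries was at least 10 CPM. Among 6919 such genes, the closest to the mean profile were Jheh2 (0.998), a juvenile hormone epoxide hydrolase gene, then Mettl5 and CG42374 (both 0.997, with the same values), Ance (0.983), smp-30 (0.983) and Vps24 (0.981). Over all 12 libraries, where tissue sets the profile, the closest of 6492 genes were Prat2 (0.995), Spn43Ab (0.994), CG31705 (0.994), CG31326 (0.993), Gel (0.993) and Nepl11 (0.993), and bond ran against the mean at -0.88. These 6492 genes had passed the same limit on the fat body level alone.

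**Figure D5:**
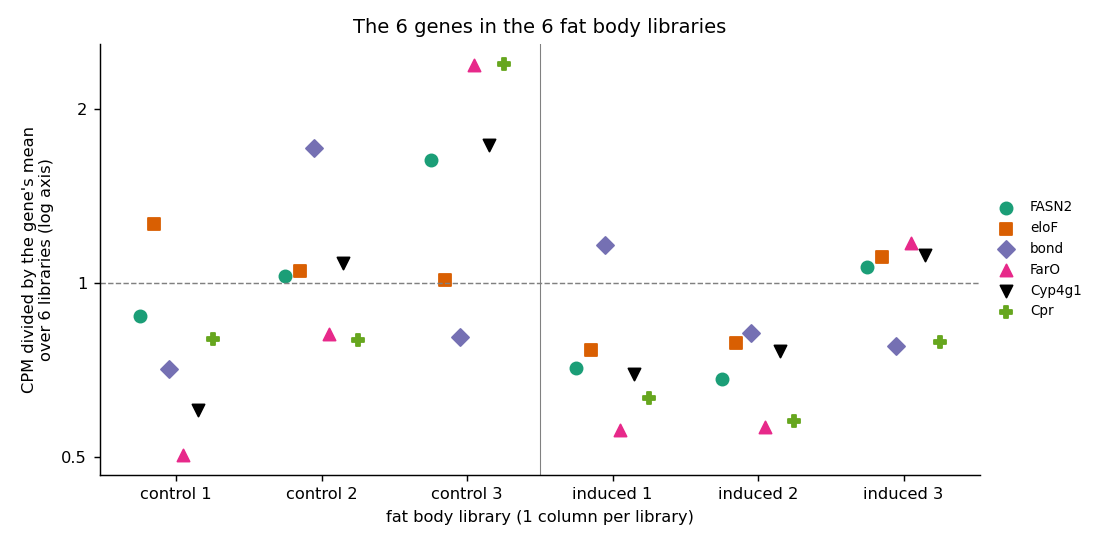
CPM scaled within the fat body divided by the mean of the gene over 6 libraries (vertical, log axis), for each of the 6 fat body libraries (horizontal), with 1 symbol per gene. In control library 3, FarO, Cpr, Cyp4g1 and FASN2 all lie above their means, while bond lies below its mean and eloF close to it.

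The difference between tissues in the response to induction was tested as an interaction over all 12 libraries. None of the 6 genes passed, where 0% of 10005 genes did, and 1 had an unadjusted p below 0.05, where 3.42% of genes did. That gene was eloF, for which the log2 response in fat body minus that in gut was -1.27 (SE 0.42, edgeR adjusted p = 0.999). Cyp4g1 was at -1.06 (SE 0.64), bond at -0.46 (SE 0.51), Cpr at -0.39 (SE 0.57), FASN2 at -0.20 (SE 0.54) and FarO at 0.25 (SE 0.92). DESeq2 called 0.13% of genes and none of the 6.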

How the data were processed

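Poly(A) RNA libraries with molecular identifiers were made by the study from guts and fat bodies, with 16 PCR cycles. The authors removed duplicates, aligned reads to release 6 of the genome with HISAT2 and deposited whole-number read counts per gene from featureCounts for each tissue. They also deposited variance-stabilised values from DESeq2, a log2-like score with library size removed, used here in 1 alternative. Groups came from the tissue and induction labels. No column of the tables was left out as belonging to no listed sample.

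Counts were tested with edgeR 4.0.16 (quasi-likelihood F-test) in R 4.3.3 on genes with at least 1 count, with TMM scaling and Benjamini-Hochberg adjustment over all genes at 10% FDR. Induction was fitted per tissue, and tissue and interaction contrasts in 1 fit of all 12 libraries on the raw counts of both tables. Alternatives were other size factors, filters and thresholds, DESeq2 1.42.0, limma 3.58.1 on log2 CPM (prior count 2) and on the transformed values, other sample sets, and each library left out. The fits were tested on simulated data.

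The 7 genes and 14 further lists were chosen with earlier results of these data known. Named beyond the 7 genes were all genes of the precursor list, any list gene past 10% FDR on induction, the highest and lowest gene of each pathway list by tissue difference, and the 6 most similar genes by Pearson correlation. Others are marked in the text as picked with their values in view. Positions are from Ensembl release 115 (BDGP6.54), and levels per kilobase use the union of exons. Symbols were found for 10279 gut and 10969 fat body identifiers, and those without a symbol held 0.693% and 1.49% of counts. Promoter motifs were not analysed here.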

Additional observations from a re-analysis of the deposited data

How the results depend on the processing

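The count of genes passing on induction in gut was 0 under every alternative run except without gut control replicate 3, where it was 1 (Cpr, -0.82). With each library left out in turn, the sign of some values that did not pass changed: bond in the gut ranged from -0.022 to 0.35, and in the fat body Cyp4g1 ranged from -0.71 to 0.040, FarO from -1.17 to 0.23 and bond from -0.46 to 0.27. The interaction ranged from -0.66 to 0.34 for Cpr, -0.49 to 0.10 for FASN2, -0.70 to 0.078 for bond and -0.28 to 1.14 for FarO, where values of -0.20 and -0.13 were also seen. Without both gut control replicate 3 and fat body control replicate 3, a setting chosen after seeing the data, the interaction was 0.54 for Cpr and 0.25 for FASN2, and with library sizes only it was 0.067 for FASN2. The cause was not tested. Cpr against gut in induced flies (1.06, adjusted p = 0.102) lost its call without fat body induced replicate 3. With library sizes only, the median of all genes moved to 0.25 in the tissue contrast of controls and 0.53 in that of induced flies, the share of calls that were higher rose from 47.8% to 60.8% and from 52.0% to 73.6%, and the tissue calls of all 6 genes kept their direction. Over all genes, induction in gut gave 5 calls by edgeR, 43 by DESeq2 and 879 without gut control replicate 3. No paired analysis was possible because neither the labels nor the tables carry replicate or block numbers. The replicate numbers used here only name libraries in the order of the series. FASN2, FarO and eloF in the gut rest on 3 to 46 reads per library, so changes there were hard to detect at this depth.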

Other observations

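The genes of the elongase cluster on chromosome 3R spread unequally among the control fat bodies. The lowest and highest control libraries were 416 and 430 CPM for CG9458, 211 and 250 CPM for CG9459 and 2269 and 2834 CPM for CG16904, beside 1896 and 2333 CPM for eloF. CG8534, scaled within the fat body, spread more widely, with 17.8, 24.0 and 45.4 CPM, and was highest in control library 3. Fad2 ran from 7895 to 8457 CPM and CG30008, another elongase gene, from 3615 to 4297 CPM. Cyp4g1 ran from 17403 to 50933 CPM in the same 3 libraries. In the induced fat bodies the same genes were lower on average, with log2 differences of -0.57 for CG9458, -0.38 for CG9459, -0.44 for CG16904, -0.51 for Fad2 and -0.47 for CG30008, none past 10% FDR. These genes were picked with their values in view, and whether their spread differed from that of Cyp4g1 was not tested.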
